A study of Rattus norvegicus with 6 samples.

Results

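Heat shock proteins and J-domain cochaperones, the protein-folding machinery of the cell, were followed in primary rat hippocampal neurons in which Ncoa3 was silenced. They were chosen by gene symbol alone: the Dnaja, Dnajb and Dnajc genes, the Hspa and Hspb genes, Hsp90a genes, Hspd1, Hspe1 and Hsph1, without Hspa5. On probe sets that name a single gene, 62 of the 18166 measured genes met that rule, and each was read on its brightest probe set. They comprised 7 Hsp70 genes, 3 Hsp110 genes, 2 Hsp90 genes, 2 genes of the mitochondrial chaperonin, 7 small heat shock proteins and 41 J-domain genes (4 of class A, 12 of class B and 25 of class C).

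The neurons came from rat embryos at day 18 and were kept in 10 µM FUDR, which stops cell division. At 4 days in vitro an adeno-associated virus (1800000 IFU/ml, infectious units) brought in a short hairpin RNA (shRNA), which was a control shRNA or targeted Ncoa3, a transcriptional coactivator of nuclear receptors. RNA was taken at 14 days in vitro from both groups, and 3 experiments gave 1 Affymetrix array of each group, 6 arrays in all. Both groups therefore carried a virus and an shRNA, and the arrays read whole cultures, in which fewer cells of a type and less RNA per cell cannot be told apart.

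Hsp70 chaperones bind exposed hydrophobic stretches of unfolded proteins in a cycle driven by ATP. J-domain proteins bring them their clients and trigger ATP hydrolysis, and Hsp110 proteins exchange the nucleotide and release the client. Hsp90 matures receptors and kinases, small heat shock proteins hold unfolded proteins soluble, and heat shock factors switch many of these genes on under stress. In neurons, Hsc70 (Hspa8) with its J-domain partners also strips clathrin from endocytosed vesicles and guards vesicle proteins at the synapse.

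The silencing was visible on the arrays. The log2 signal of Ncoa3 (probe set 17769041) fell from 8.52 ± 0.270 on the control shRNA arrays to 7.55 ± 0.0869 on the Ncoa3 shRNA arrays (SD, n = 3 each). The change was -0.97 ± 0.142 (SE), with limma's adjusted p = 0.00747. All signals below are log2 values after the 6 arrays were given the same distribution (quantile normalization), unless they are called deposited, and a change is the mean with Ncoa3 shRNA minus the mean with control shRNA. In the deposited values the median gene was 0.25 log2 units lower with Ncoa3 shRNA (-0.25), so a deposited change holds that shift. All 9 measured neuron markers were well above the dim range defined below and 0 of them passed the test of shRNA (1 was higher and 1 lower at an unadjusted p under 0.05). With the experiment added to limma's fit as a block, 0 were higher and 1, Rbfox3, was lower (-0.15, adjusted p = 0.0206). In the deposited values without that block 0 were higher and 2 lower.

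Most of the chaperone genes did not pass the test of shRNA. By limma, at a Benjamini-Hochberg adjusted p under 0.05 over the 18166 genes, 2 of the 62 genes rose and 7 fell, and 53 did not pass. That is 14.5% of them, where 19.5% of all genes passed, 10.5% higher and 9.04% lower. Dnajc12 and Dnajc22 were the genes that rose. Dnajb8, Dnajc17l1, Hspa12b, Hsp90aa1-ps2, Dnajc17, Dnajc5b and Dnajc5g were those that fell. The changes were small, as were those of most genes. Of the 62 genes 0 differed by over 1.5-fold, passed or not, where 472 of all 18166 genes did. Within 0.3 log2 units of 0 lay 54 (87.1%), where 80.5% of all genes did. Among genes above the dim range defined below, these shares were close, at 86.8% and 85.9%. The median change of the 62 genes was -0.03, and that of all genes 0.01. For 54 genes (87.1%) the 95% interval of the change lay wholly inside 1.5-fold in either direction, which was so for 78.3% of all genes. All 3 Ncoa3 shRNA arrays lay above all 3 control arrays for 13 chaperone genes and below them for 13, and for 36 the groups overlapped. Over all genes, 21.5% lay wholly above and 19% wholly below.

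**Figure D1:**
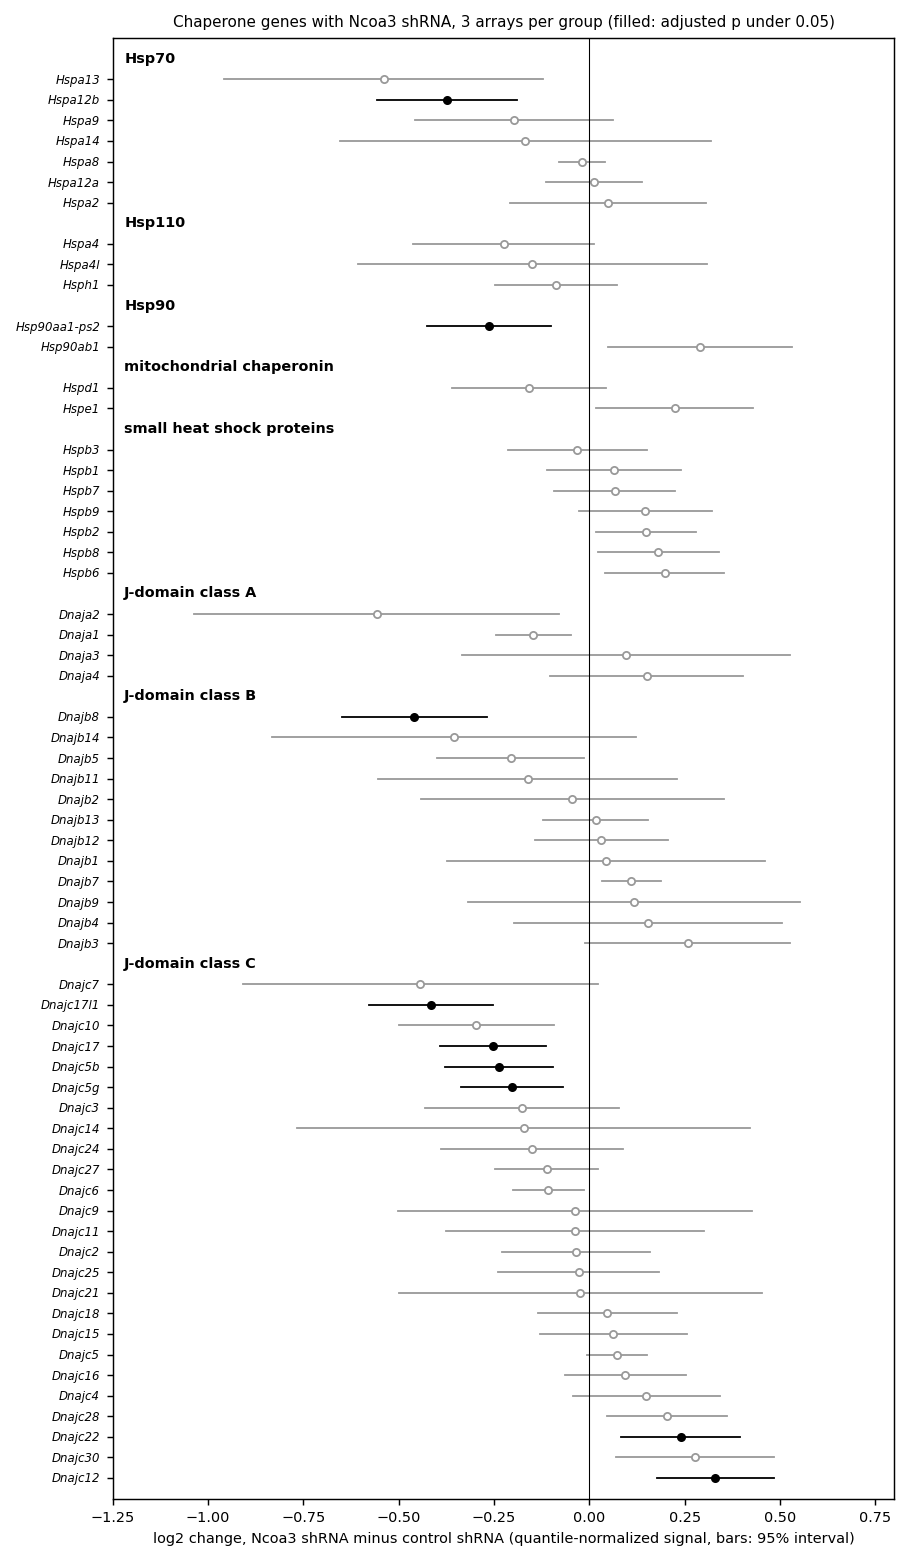
Each point is the log2 change of 1 chaperone gene (Ncoa3 shRNA minus control shRNA, quantile-normalized signal, n = 3 arrays per group) with its 95% interval, sorted within its family. The 9 filled points passed limma's test, between -0.46 for Dnajb8 and 0.33 for Dnajc12, and most intervals cross 0; in the deposited values 58 of the 62 changes (93.5%) are below 0, where 86.9% of all genes are.

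With the experiment as a replicate block, which the labels' numbering of experiments supplies, 9 chaperone genes were higher and 11 lower, where 20.8% and 18.6% of all genes were. These 20 genes held all 9 already named and 11 more. Hsp90ab1, Dnajb3, Dnajb7, Dnajc28, Hspb2, Hspb8 and Hspb9 were added among those higher, and Hspa13, Dnaja1, Dnajc6 and Dnajc7 among those lower. The added higher calls turned with scaling. With the same block on the deposited values, Dnajb7 (-0.16), Dnajc28 (-0.08), Hspb2 (-0.13), Hspb8 (-0.10) and Hspb9 (-0.14) were called lower, with adjusted p between 0.00042 and 0.0338. In the deposited values 0 chaperone genes were higher (also 0 at an unadjusted p under 0.05) and 31 lower, where 3.97% and 43.3% of all genes were, and the median chaperone change was -0.26. There 93.5% of chaperone genes and 86.9% of all genes were below 0. Of the 28 chaperone changes above 0 after quantile normalization, only those of Hsp90ab1, Dnajc12, Dnajc30 and Hspe1 were also above 0 in the deposited values. With arrays centred on their median, 0 were higher (2 at an unadjusted p under 0.05) and 3 lower, where 5.65% and 4.63% of all genes were. The 3 were Dnajb8, Dnajc17l1 and Hspa12b, and the calls of Dnajc12, Dnajc17, Dnajc22, Dnajc5b, Dnajc5g and Hsp90aa1-ps2 were lost (adjusted p between 0.0760 and 0.255). With cyclic loess 6 were higher and 8 lower, where 13.4% and 12% of all genes were.

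The promoters of the chaperone genes were searched for heat shock elements, arrays of inverted GAA repeats that heat shock factors bind. The letters searched were GAA, TTC and GAA in that order with any 2 bases (NN) between neighbouring blocks, on both strands, in the 250 bases before and 50 bases after each gene's start, from RefSeq (build GRCr8). Of 27457 promoters, 202 held a match (0.736%). Of the 50 chaperone genes found there, 5 did (10.0%): Hspa8, Hsph1, Hspd1, Hspe1 and Dnaja1. None of these 5 passed the test of shRNA, with changes between -0.16 and 0.22, and of the other 45, 5 passed. Of all 86 measured genes with a match, 20 passed, or 23.3%. A match is a description of letters and not a binding site. These stretches are shown because they hold a match within the 120 bases before the start. Each ends at the base before the start, with matches in capitals.
Hspa8: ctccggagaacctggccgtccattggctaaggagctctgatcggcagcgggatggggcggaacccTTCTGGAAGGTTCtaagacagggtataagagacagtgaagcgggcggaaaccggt
Hsph1: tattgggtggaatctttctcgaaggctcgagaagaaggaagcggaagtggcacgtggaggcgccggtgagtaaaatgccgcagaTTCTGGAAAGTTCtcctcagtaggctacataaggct
Hspe1: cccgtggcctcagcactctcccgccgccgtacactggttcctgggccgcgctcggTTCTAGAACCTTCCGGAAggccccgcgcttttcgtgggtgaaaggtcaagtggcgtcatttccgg

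The Hspa8 stretch lies at chr8:50080394-50080513, the Hsph1 stretch at chr12:10427248-10427367 and the Hspe1 stretch at chr9:64084207-64084326, all given on the plus strand. Hspa8 had a further match from position -213 to -201 relative to its start. The capitals of Hspe1 are a pair of overlapping matches, and the same bases served the head-to-head gene Hspd1, whose start lies 290 bases away.

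The Hsp70 family held 1 gene that fell, of 7. Hspa12b, a divergent Hsp70 known from endothelial cells, read 7.58, 7.58 and 7.48 on the control arrays of experiments 1, 2 and 3. It read 7.05, 7.26 and 7.20 on the Ncoa3 shRNA arrays. The groups did not overlap, and the change was -0.37 ± 0.0752 (SE), 1.30-fold lower, with limma's adjusted p = 0.0205. Its deposited values were identical on all 3 control arrays (7.68), so the spread of those arrays comes from the normalization. Of the 6 measured markers of fibroblasts and vessels, 1 was higher with Ncoa3 shRNA and 0 were lower (none at an unadjusted p under 0.05), with a summed log2 signal of 46.64 to 47.75 on control arrays and 47.67 to 48.97 on Ncoa3 shRNA arrays. With the replicate block 3 were higher and 2 lower. Among the lower was Cldn5, a tight junction gene of endothelial cells. It read 6.63, 6.65 and 6.49 with control shRNA and 6.52, 6.51 and 6.36 with Ncoa3 shRNA. Its change was -0.12 (limma's adjusted p = 0.0177 with the block and 0.291 without). Cldn5 lay in the dim range defined below (mean signal 6.53), and its deposited values were identical on all 3 Ncoa3 shRNA arrays. The part of these markers in the result was not tested.

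Hspa8, the constitutive Hsc70, read 13.57, 13.61 and 13.55 with control shRNA and 13.56 on all 3 Ncoa3 shRNA arrays. The groups overlapped, and the change of -0.02 ± 0.0247 (SE, adjusted p = 0.625) has a 95% interval from -0.08 to 0.04. Within each group its deposited values were identical, so the spread behind that interval comes from the normalization, and centring the arrays on their median instead turned the change to 0.19. Hspa9, the mitochondrial Hsp70 mortalin, read 11.30, 11.32 and 11.22 with control shRNA and 11.09, 10.87 and 11.28 with Ncoa3 shRNA. It was lower in experiments 1 and 2 and slightly higher in experiment 3, and did not pass the test (-0.20, adjusted p = 0.252). Hspa2, an Hsp70 best known from spermatogenesis, and the brain-rich Hspa12a differed by 0.05 and 0.01 (-0.22 and -0.19 in the deposited values; adjusted p = 0.796 and 0.904).

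Hspa13, an Hsp70 relative of the endoplasmic reticulum, had the largest negative change of the family without passing the test. It read 10.12, 10.09 and 10.21 with control shRNA and 9.67, 9.23 and 9.91 with Ncoa3 shRNA. The groups did not overlap, but the Ncoa3 shRNA arrays differed among themselves, and the change of -0.54 ± 0.172 (SE) had an adjusted p of 0.0792, or 0.0465 with the replicate block. On all 3 control arrays the deposited value of Hspa13 was the same (10.26). Hspa14, a ribosome-associated Hsp70, differed by -0.17 ± 0.2 (SE, adjusted p = 0.612). Hspa13, Hspa14 and other genes named in passing lay outside the rule for named genes and were chosen after their values were seen.

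None of the 3 Hsp110 nucleotide exchange factors passed the test, and none had an unadjusted p under 0.05. Hsph1 (Hsp105) read 10.62, 10.79 and 10.65 with control shRNA and 10.57, 10.59 and 10.65 with Ncoa3 shRNA. Hspa4 read 11.47, 11.51 and 11.52 with control shRNA and 11.23, 11.11 and 11.48 with Ncoa3 shRNA, and Hspa4l differed by -0.15 ± 0.188 (SE). The mean of each was lower with Ncoa3 shRNA, Hsph1 by -0.09 (adjusted p = 0.414) and Hspa4 by -0.22 (adjusted p = 0.166), but in each gene the groups overlapped.

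Of the Hsp90 genes, Hsp90ab1, the constitutive cytosolic form, was above its controls on every Ncoa3 shRNA array without passing the test. It read 10.35, 10.36 and 10.09 with control shRNA and 10.61, 10.62 and 10.44 with Ncoa3 shRNA. In each experiment the Ncoa3 shRNA array was higher, and the change of 0.29 ± 0.099 (SE) had an adjusted p of 0.095. With the replicate block the adjusted p was 0.0144, and in the deposited values the change was 0.07 (adjusted p = 0.690). Hsp90aa1-ps2, a pseudogene of the inducible form, fell by 0.26 log2 units (-0.26 ± 0.0669, SE; adjusted p = 0.0416), from 6.02, 5.99 and 5.84 to 5.69, 5.76 and 5.61. Such a copy can share probe sequence with its parent gene, and the parent Hsp90aa1 lay on a probe set that names several genes and is not reported here. Hspa1a, Hspa1b and Dnajb6 were likewise on such probe sets, so the stress-inducible Hsp70 genes were not analysed here.

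The genes of the mitochondrial chaperonin pair differed in opposite directions without passing the test. Hspd1 (Hsp60), which forms the folding chamber, read 11.48, 11.25 and 11.27 with control shRNA and 11.16, 11.10 and 11.27 with Ncoa3 shRNA. Hspe1 (Hsp10), its lid, read 10.65, 10.36 and 10.56 with control shRNA and 10.73, 10.78 and 10.72 with Ncoa3 shRNA. The groups of Hspd1 overlapped (-0.16, adjusted p = 0.240), and those of Hspe1 did not (0.22, adjusted p = 0.121). In the deposited values the change of Hspe1 was 0.02, and the difference between both genes was not tested. Among 8 genes of the mitochondrion, the pair included, 0 passed the test (3 higher and 0 lower at an unadjusted p under 0.05), and 1, Dnajc28, was higher with the replicate block.

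**Figure D2:**
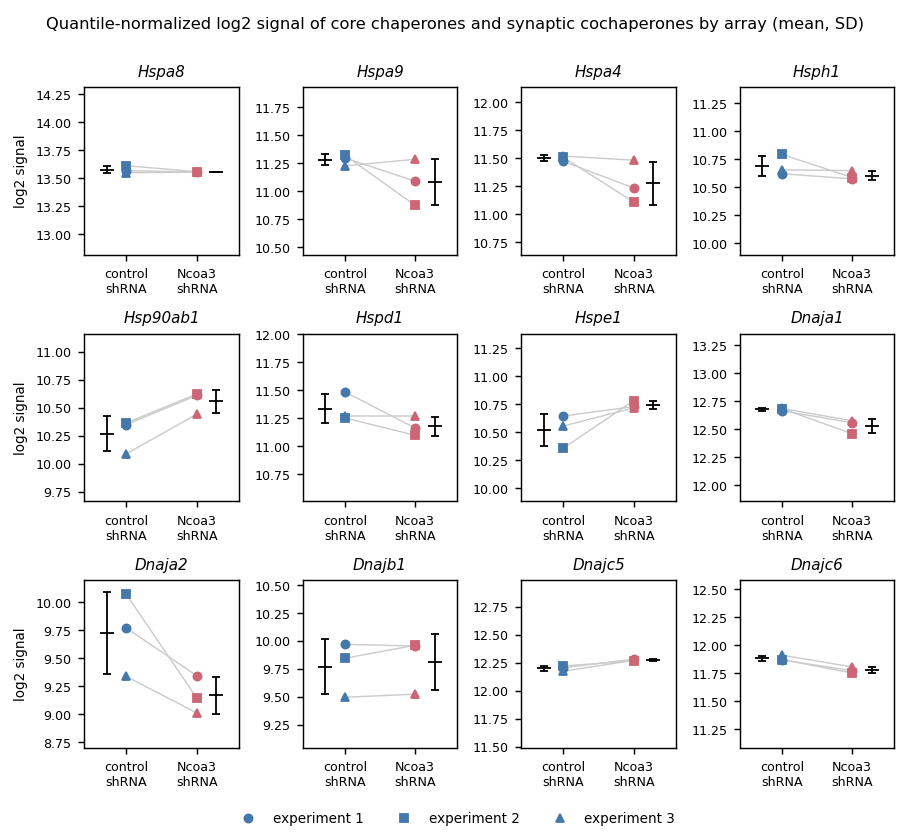
Quantile-normalized log2 signal of 12 chaperone and cochaperone genes by array (control shRNA and Ncoa3 shRNA, a line joins both arrays of an experiment), with the group mean and SD beside the points. None of the 12 passed the test without a block. Hsp90ab1, Hspe1 and Dnajc5 were higher with Ncoa3 shRNA in all 3 experiments (mean changes of 0.07, 0.02 and -0.06 in the deposited values). Hspa4, Dnaja1, Dnaja2 and Dnajc6 were lower in all 3 (Dnaja1 and Dnajc6 turn to 0.03 with median centring). Hsph1 and Hspd1 were lower in experiments 1 and 2 and nearly level in experiment 3 (-0.0072 and -0.00035). Hspa8 was nearly level.

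Among the small heat shock proteins 0 of 7 passed the test (3 higher and 0 lower at an unadjusted p under 0.05). The changes lay above 0 in 6 of the 7 after quantile normalization, while all 7 were below 0 in the deposited values, where 4 were called lower. Hspb8, a partner of Bag3 in selective autophagy, read 7.74, 7.69 and 7.59 with control shRNA and 7.89, 7.85 and 7.82 with Ncoa3 shRNA. Hspb6 (Hsp20) read 10.93, 10.81 and 11.00 with control shRNA and 11.12, 11.13 and 11.09 with Ncoa3 shRNA. In both genes every Ncoa3 shRNA array lay above every control array, with changes of 0.18 (adjusted p = 0.109) and 0.20 (adjusted p = 0.0835). With the replicate block Hspb2, Hspb8 and Hspb9 were higher (adjusted p = 0.0203, 0.0215 and 0.0169). Hspb1 (Hsp27), the stress-inducible member, differed by 0.06 ± 0.0727 (SE, adjusted p = 0.590), and Hspb7 by 0.07 (adjusted p = 0.533), both -0.22 in the deposited values.

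The class A J-domain proteins, close relatives of bacterial DnaJ, held no gene that passed the test (0 higher and 2 lower at an unadjusted p under 0.05). Dnaja1 read 12.66, 12.68 and 12.68 with control shRNA and 12.56, 12.46 and 12.57 with Ncoa3 shRNA. The groups did not overlap, and the change was -0.15 ± 0.0403 (SE, adjusted p = 0.0516, or 0.0451 with the replicate block). It turned to 0.03 when arrays were centred on their median. On all 3 control arrays the deposited value of Dnaja1 was the same (12.72). Dnaja2, a general partner of Hsc70, read 9.77, 10.07 and 9.34 with control shRNA and 9.34, 9.15 and 9.01 with Ncoa3 shRNA. It had the most negative change of the 62 genes, -0.56 ± 0.196 (SE), but the control arrays spread widely and the adjusted p was 0.103 (0.0518 with the replicate block). Dnaja3, the mitochondrial form, and Dnaja4 differed by 0.10 and 0.15 (-0.15 and -0.14 in the deposited values; adjusted p = 0.753 and 0.369).

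Of the 12 class B genes 1 fell, Dnajb8. Dnajb8, a testis-rich suppressor of protein aggregation, read 7.27, 7.29 and 7.34 with control shRNA and 6.76, 6.77 and 6.99 with Ncoa3 shRNA. The groups were well apart, and the change of -0.46 ± 0.0784 (SE), 1.37-fold lower, had limma's adjusted p = 0.0122. Dnajb1 (Hsp40), the classical heat-inducible partner of Hsp70, read 9.97, 9.85 and 9.50 with control shRNA and 9.95, 9.96 and 9.52 with Ncoa3 shRNA. Its groups overlapped, and the change was 0.04 ± 0.172 (SE, adjusted p = 0.893; -0.21 in the deposited values). Dnajb2, the neuronal form that hands clients to the proteasome, differed by -0.04 ± 0.164 (SE, adjusted p = 0.883), and Dnajb5 by -0.21 ± 0.0796 (SE, adjusted p = 0.128). The other class B genes that did not pass were Dnajb3, Dnajb4, Dnajb7, Dnajb12, Dnajb13 and Dnajb14, with changes between -0.35 for Dnajb14 and 0.26 for Dnajb3, and Dnajb9 and Dnajb11, which act in the endoplasmic reticulum.

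Of the 25 class C genes, which share the J-domain and little else, 2 rose and 4 fell. Dnajc12, a cochaperone of the aromatic amino acid hydroxylases, read 9.63, 9.53 and 9.49 with control shRNA and 9.88, 9.90 and 9.87 with Ncoa3 shRNA. The groups did not overlap, and the change was 0.33 ± 0.0631 (SE), 1.26-fold higher (adjusted p = 0.0174; 0.07 in the deposited values, adjusted p = 0.476). Dnajc22 read 6.99, 7.01 and 6.87 with control shRNA and 7.21, 7.13 and 7.25 with Ncoa3 shRNA, a change of 0.24 ± 0.0639 (SE, adjusted p = 0.0481) that turned to -0.04 in the deposited values.

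The class C genes that fell were Dnajc17l1, Dnajc17, Dnajc5b and Dnajc5g. Dnajc17, a J-domain protein of the nucleus with an RNA-recognition motif, read 8.50 on every control array and 8.26, 8.28 and 8.22 with Ncoa3 shRNA. It was lower in all 3 experiments, by 0.25 log2 units on average (-0.25 ± 0.057, SE; adjusted p = 0.0289, 0.255 with arrays centred on their median). Dnajc17l1, a gene named for its likeness to Dnajc17, read 5.52, 5.64 and 5.42 with control shRNA and 5.14, 5.14 and 5.05 with Ncoa3 shRNA. Its change was -0.42 ± 0.0672 (SE, limma's adjusted p = 0.0103), the lowest p of the 62 genes, and similar copies can share probe sequence. Its deposited values were identical on all 3 Ncoa3 shRNA arrays (4.98) and on the control arrays of experiments 1 and 3 (5.63). The spread of its Ncoa3 shRNA arrays therefore comes from the normalization. Dnajc5b and Dnajc5g, testis forms of cysteine string protein, changed by -0.24 (adjusted p = 0.0381) and -0.20 (adjusted p = 0.0499). Dnajc5b read 5.66, 5.68 and 5.55 against 5.43, 5.43 and 5.32, and Dnajc5g 6.17, 6.19 and 6.16 against 6.02, 6.02 and 5.88.

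**Figure D3:**
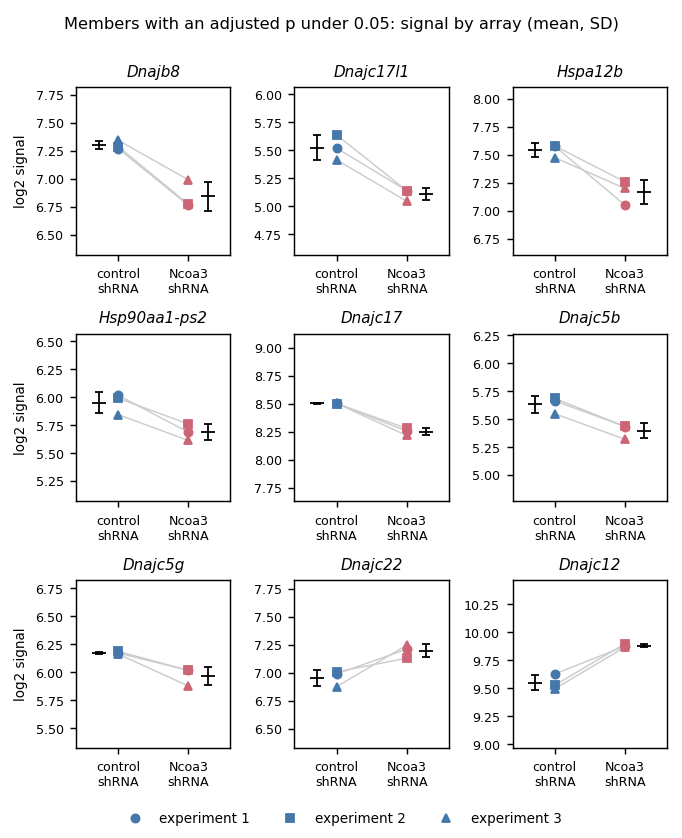
Quantile-normalized log2 signal by array of the 9 chaperone genes with an adjusted p under 0.05 (control shRNA and Ncoa3 shRNA, a line joins both arrays of an experiment), with the group mean and SD beside the points. In each gene all 3 lines run the same way and the groups do not overlap; the mean change of Dnajc22 turns to -0.04 in the deposited values.

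The remaining 19 class C genes did not pass the test, with changes between -0.44 and 0.28. Dnajc7, which binds both Hsp70 and Hsp90 through its TPR repeats, read 11.24, 11.29 and 10.80 with control shRNA and 10.99, 10.58 and 10.43 with Ncoa3 shRNA. It was lower in each experiment, but the groups overlapped (-0.44 ± 0.192, SE; adjusted p = 0.165, 0.0465 with the replicate block). Dnajc30, a mitochondrial protein, differed by 0.28 ± 0.0851 (SE, adjusted p = 0.0720), and its other probe sets by -0.11. Dnajc2, Dnajc4, Dnajc11, Dnajc15, Dnajc16, Dnajc18, Dnajc24, Dnajc25 and Dnajc27 lay between -0.15 for Dnajc24 and 0.15 for Dnajc4. Dnajc28 differed by 0.20 (adjusted p = 0.0773, 0.0100 with the replicate block), but was called lower in the deposited values (-0.08, adjusted p = 0.000877).

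The cochaperones of the synapse did not pass the test either. Dnajc5 (cysteine string protein alpha), which guards SNARE proteins on synaptic vesicles, read 12.21, 12.22 and 12.18 with control shRNA and 12.28, 12.27 and 12.27 with Ncoa3 shRNA. It was slightly higher on every Ncoa3 shRNA array, and the change of 0.07 ± 0.0327 (SE) did not pass the test (adjusted p = 0.179; -0.06 in the deposited values). Dnajc6 (auxilin), which recruits Hspa8 to clathrin coats, read 11.87, 11.87 and 11.91 with control shRNA and 11.77, 11.75 and 11.81 with Ncoa3 shRNA. Its groups did not overlap, and the change was -0.11 ± 0.0384 (SE, adjusted p = 0.106), 0.0423 with the replicate block and 0.03 when arrays were centred on their median. Whether Dnajc5 and its testis forms differ in their response was not tested.

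J-domain proteins of the endoplasmic reticulum help the Hsp70 of that compartment fold and clear secretory proteins. A group of 5 genes (Hspa13, Dnajb9, Dnajb11, Dnajc3 and Dnajc10) gave 0 that passed the test (0 higher and 2 lower at an unadjusted p under 0.05). The group was drawn up after the values were seen and does not hold every gene tied to the compartment, such as Dnajc14. Dnajc10 (ERdj5), a disulphide reductase, read 10.17, 10.20 and 10.06 with control shRNA and 9.88, 9.71 and 9.94 with Ncoa3 shRNA. Its groups did not overlap, and the change of -0.30 ± 0.0835 (SE) had an adjusted p of 0.0555. Dnajc3 (p58IPK) and Dnajb11 (ERdj3) differed by -0.18 (adjusted p = 0.296) and -0.16 (adjusted p = 0.538). Dnajb9 (ERdj4), a target of the unfolded protein response, differed by 0.12 (adjusted p = 0.699; -0.15 in the deposited values).

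Many of the calls lay among dim probe sets. As a reference for dim signal, 1344 olfactory and vomeronasal receptor genes were taken, which hippocampal neurons are not known to use as a class, and the 95th percentile of their mean signal was 7.01. Of the 62 chaperone genes, 9 were not above that signal, and 4 of these passed the test (Dnajc17l1, Hsp90aa1-ps2, Dnajc5b and Dnajc5g), or 44.4%, where 34.3% of all equally dim genes did. Of the 53 brighter chaperone genes 5 passed, or 9.43%, where 11.3% of all genes in that range did. Of these 5, Dnajb8 and Dnajc22 lay only just above the line, with mean signals of 7.07 and 7.08. Among 7 genes known chiefly from germ cells, 3 fell (Dnajb8, Dnajc5b and Dnajc5g) and 0 rose (1 at an unadjusted p under 0.05). That is 42.9% of them, where 19.5% of all genes and 34.3% of all genes not above the receptor signal passed. Of the 7, 3 were not above that signal. This group of 7 was drawn up after the values were seen, and its shares rest on that choice. It leaves out Hspa2, which did not pass (0.05, adjusted p = 0.796). In 3 of the 7 the deposited values were identical within both groups. With the replicate block 3 of the 7 were lower and 3 higher (Dnajb3, Dnajb7 and Hspb9), or 85.7%. Over all genes that share was 39.3%, and over those not above the receptor signal 55.7%. When the fit held only genes brighter than the median gene, 44 chaperone genes remained, and 1 of them was higher and 0 lower (5 and 7 at an unadjusted p under 0.05), where 2.42% and 2.36% of all genes in that fit were.

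**Figure D4:**
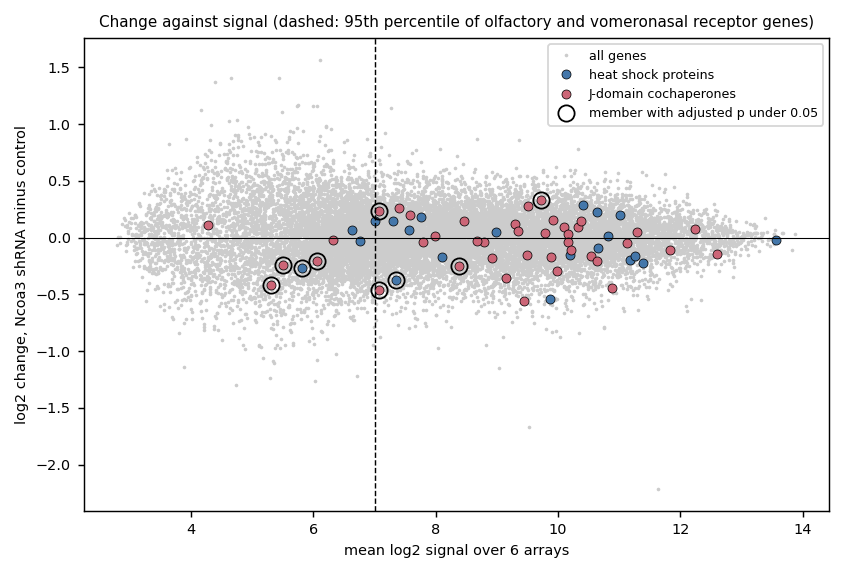
Log2 change (Ncoa3 shRNA minus control shRNA, quantile-normalized) against the mean log2 signal over 6 arrays, for all 18166 genes (grey) and the 62 chaperone genes (coloured; ringed where the adjusted p is under 0.05). Of the 9 ringed genes, 4 lie left of the dashed line at 7.01, the 95th percentile of the receptor genes. Dnajb8 and Dnajc22 lie just right of it (7.07 and 7.08).

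The arrays of a group share values in the deposited table, and those of different groups hardly any. Of 36685 probe sets, 7154 were identical on all 3 control arrays and 7265 on all 3 Ncoa3 shRNA arrays, while 0 to 2 were identical on any pair of arrays from different groups. Processing shared within a group therefore cannot be told apart from the shRNA. Of the 62 chaperone genes, 8 had the same deposited value on all 3 control arrays, 11 on all 3 Ncoa3 shRNA arrays and 4 on both (Hspa8, Dnajb7, Dnajc5b and Hspb9). Over all 18166 genes the numbers were 4089, 4077 and 1950. Most calls were also lost in at least 1 fit that left out a single array. Such a fit holds fewer arrays, so a lost call does not show that 1 array made the difference. Dnajc17l1 was called without any one array (adjusted p up to 0.0480) but not without experiment 1 or experiment 2 (0.155 and 0.141). Without the control array of experiment 1 or of experiment 2, 0 chaperone genes were higher (7 and 5 at an unadjusted p under 0.05) and 1 was lower. Without the Ncoa3 shRNA array of experiment 1, 0 were higher (4 at an unadjusted p under 0.05) and 1 lower, and without that of experiment 2, 0 were higher (4 likewise) and 2 lower. Without the whole of experiment 1, 0 were higher and 0 lower (1 and 3 at an unadjusted p under 0.05), without experiment 2 also 0 and 0 (2 and 5), and without experiment 3, 10 were higher and 12 lower. The shares of all genes in these fits are not given here, so the counts do not set the chaperone genes apart.

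The experiments themselves differed in 5 chaperone genes. In a model with shRNA and experiment, Dnajb1, Dnajb2, Dnajc9, Dnajc14 and Dnajc21 passed the test of experiment (limma's F test, adjusted p between 0.0363 and 0.0484), or 8.06% of the 62 genes, where 18.8% of all genes passed. All 5 were lowest in experiment 3 in both groups. Dnajb1 in experiment 3 lay 0.41 log2 units under the mean of experiments 1 and 2 with control shRNA (-0.41) and 0.43 under it with Ncoa3 shRNA (-0.43). Dnajc14, a J-domain protein that helps receptors leave the endoplasmic reticulum, read 10.18, 10.13 and 9.59 with control shRNA and 10.02, 10.02 and 9.34 with Ncoa3 shRNA. Dnajb2 read 11.37, 11.21 and 10.87 with control shRNA and 11.29, 11.17 and 10.86 with Ncoa3 shRNA. For Dnajb1, Dnajb2 and Dnajc9, which binds histones, both arrays of experiment 3 were low, and the changes with shRNA were 0.04, -0.04 and -0.04 after quantile normalization. In the deposited values with the replicate block all 3 were called lower (-0.21, -0.24 and -0.32). Over the 62 genes, 35 were lower in experiment 3 in both groups, 11 higher in both, and 16 differed in sign between the groups. The same counts were not made over all genes, so they do not set the chaperone genes apart.

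Astrocyte markers ran with the experiment. All 7 measured markers (Gfap, Aqp4, Slc1a3, Slc1a2, Aldoc, Gja1 and S100b) passed the test of experiment and were highest in experiment 3 in both groups, and 0 passed the test of shRNA (none at an unadjusted p under 0.05). Their summed log2 signal was 70.76, 72.13 and 74.58 in experiments 1, 2 and 3 with control shRNA and 70.03, 71.92 and 74.84 with Ncoa3 shRNA. Their part in the results for chaperone genes was not tested. The summed signal of 9 neuron markers was 113.2 to 113.8 with control shRNA and 112.9 to 113.9 with Ncoa3 shRNA. Of 8 microglia markers, 3 were higher with Ncoa3 shRNA (Aif1, Cx3cr1 and C1qb), with a summed signal of 50.71 to 51.69 on control arrays and 52.65 to 54.81 on Ncoa3 shRNA arrays. Only 2 of the 8 were above the receptor signal. The 3 that were higher were not, and in that dim range 34.3% of all genes passed. In the deposited values 1 of the 8 was higher and 1 lower, and 4 of the changes lay below 0. The part of the microglia markers in the chaperone results was not tested. Of 7 oligodendrocyte lineage markers, 1 was higher and 2 were lower, with a summed signal of 53.34 to 53.61 and 53.29 to 53.54.

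**Figure D5:**
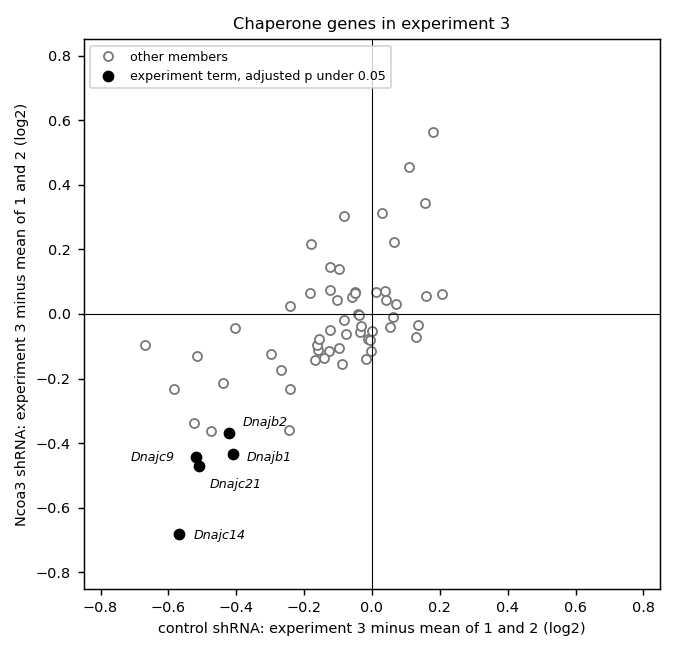
Each point is 1 of the 62 chaperone genes: the log2 signal of experiment 3 minus the mean of experiments 1 and 2, for control shRNA (horizontal) and Ncoa3 shRNA (vertical). The 5 filled genes passed the test of experiment and lie low on both axes, between -0.57 and -0.41 with control shRNA and between -0.68 and -0.37 with Ncoa3 shRNA.

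The cofactors of these chaperones were read from 5 further lists, of which 76 of 85 genes were measured. Of these 76, 5 rose and 6 fell, where 10.5% and 9.04% of all genes did. With the replicate block 7 of the 76 were higher and 13 lower, where 20.8% and 18.6% of all genes were. On the deposited scale 2 were higher and 22 lower, where 3.97% and 43.3% of all genes were. With arrays centred on their median, of the 11 that passed only Hsbp1l1 and Hsf2bp still did (adjusted p = 0.0121 and 0.0217). Among 8 heat shock factors and their regulators, 2 rose and 2 fell. Hsf1, the master regulator of the heat shock response, read 9.65, 9.63 and 9.75 with control shRNA and 9.68, 9.85 and 9.53 with Ncoa3 shRNA, with no clear order (0.01, adjusted p = 0.952; -0.24 in the deposited values). Hsbp1, which binds the trimer of Hsf1 and restrains it, read 12.81, 12.75 and 12.75 with control shRNA and 12.47, 12.47 and 12.49 with Ncoa3 shRNA. It fell on every array, by 0.30 log2 units (-0.30 ± 0.0314, SE; adjusted p = 0.00264). Hsf4 fell (-0.26, adjusted p = 0.0256), Hsbp1l1 and Hsf2bp rose (0.63 and 0.53, adjusted p = 0.0137 and 0.0232; neither was above the receptor signal), and Hsf2 differed by -0.19 (adjusted p = 0.0585, 0.0305 with the replicate block).

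Of 22 nucleotide exchange factors and cofactors of Hsp70, 1 rose and 1 fell. Bag3, which links Hsp70 and Hspb8 to autophagy, read 8.35, 8.35 and 8.51 with control shRNA and 8.70, 8.74 and 8.76 with Ncoa3 shRNA. All 3 experiments were higher, and the change was 0.33 ± 0.0723 (SE, adjusted p = 0.0255). The call was lost in 6 of the 9 fits that left out an array or an experiment (adjusted p up to 0.334) and in the deposited values, where the change was 0.06 (adjusted p = 0.319). Tomm70, the mitochondrial import receptor that docks Hsp70 and Hsp90, fell by 0.25 log2 units (-0.25, adjusted p = 0.0364). Stip1 (Hop), which passes clients from Hsp70 to Hsp90, and Stub1 (CHIP), the ubiquitin ligase of chaperone clients, differed by -0.08 and -0.05 (adjusted p = 0.188 and 0.729; 0.07 and 0.03 with arrays centred on their median).

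Of 21 Hsp90 cochaperones and relatives, 0 passed the test (0 higher and 1 lower at an unadjusted p under 0.05). Of 16 genes of the cytosolic TRiC chaperonin and of prefoldin, which fold actin and tubulin, 2 rose and 3 fell. Cct2 and Cct8, subunits of the same ring, changed in opposite directions, by 0.16 (adjusted p = 0.0420) and -0.36 (adjusted p = 0.0407). Cct2 read 11.98, 11.91 and 11.92 with control shRNA and 12.06, 12.13 and 12.09 with Ncoa3 shRNA, and Cct8 10.35, 10.63 and 10.46 against 10.07, 10.09 and 10.21. Neither gene's groups overlapped. The call of Cct2 was lost in all 9 fits that left out an array or an experiment (adjusted p up to 0.376) and in the deposited values (0.03, adjusted p = 0.564), and that of Cct8 in 8 of the 9 (up to 0.315). Pfdn6 rose by 0.37 (adjusted p = 0.0227; 0.13 in the deposited values, adjusted p = 0.198), and Mkks and Pdcl fell (-0.38 and -0.26, adjusted p = 0.0190 and 0.0419). Of 9 other heat shock genes 0 passed (0 higher and 2 lower at an unadjusted p under 0.05), and Cryab, a small heat shock protein of glia, differed by 0.15 (adjusted p = 0.589; -0.10 in the deposited values).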

How the data were processed

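RNA of 6 cultures (3 control shRNA, 3 Ncoa3 shRNA) was measured on single-colour Affymetrix arrays. The deposited values are log2 signals per probe set. Affymetrix Expression Console is the tool named in the submitters' processing notes. No source used here gives its version or how the signals were summarised and normalized. The platform's annotation, which can be old, named 18511 of 36685 probe sets with 1 symbol, and the brightest probe set of each gene was used (18166 genes). Here the 6 arrays were quantile-normalized over all probe sets, since the deposited medians ranged from 6.81 to 7.25, which also takes out a real shift shared by most genes. The two-sided test was limma's (version 3.58.1, R 4.3.3; lmFit, eBayes with a trend) at a Benjamini-Hochberg adjusted p under 0.05 over the 18166 genes. Intervals are limma's at 95%. The number of arrays limits the precision. The script was tested on simulated data. The labels number 3 experiments with 1 array per group. Deviations from the group means correlated at 0.72, 0.55 and 0.78 within experiments (-0.73 to 0.50 between), so the replicate block was fitted as well.

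Other scalings, probe-set rules, a filter on dim genes and leaving out arrays or experiments were tried. The chaperone genes, the lists and the rule for named genes were chosen with earlier results of these data known. Named genes were those that passed the test with 1 sign in all experiments, a list of core chaperones, the brightest and dimmest gene of each family, and in the cofactor lists those that passed plus Hsf1, Hsf2, Bag3, Stip1, Stub1 and Cryab. Groups by compartment and germ cell use were written after the values were seen. Of the 62 genes, 5 had several probe sets. For Dnajc30 (0.28) the other probe sets gave -0.11, and 5 probe sets that list a chaperone with another symbol were left out.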

Additional observations from a re-analysis of the deposited data

How the results depend on the processing

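The numbers of chaperone genes called depended on scaling, on the replicate block and on single experiments; the cause was not tested. From 2 higher and 7 lower, the counts moved to 0 and 31 in the deposited values, 0 and 38 there with the replicate block, 9 and 11 with the replicate block after quantile normalization, 0 and 3 with median centring, 6 and 8 with cyclic loess, and 1 and 0 among genes above the median signal, where fewer genes were tested. Leaving out arrays or experiments gave 0 to 10 higher and 0 to 12 lower. The shares of all genes are not given for these fits or for the deposited values with the replicate block. Both counts stayed at 2 and 7, and held the same 9 genes, with the mean over probe sets. Without a trend the counts were also 2 and 7, but Dnajc5g was lost and Dnajc10 gained. The 5 genes that differed between experiments became 1 in the deposited values and 0 in each fit without one experiment, which rests on 4 arrays.

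In the deposited values, with or without the replicate block, the sign turned for Cryab (-0.10), Dnaja3 (-0.15), Dnaja4 (-0.14), Dnajb1 (-0.21), Dnajb7 (-0.16), Dnajb9 (-0.15), Dnajc22 (-0.044), Dnajc5 (-0.063), Hsf1 (-0.24), Hspa12a (-0.19), Hspa2 (-0.22), Hspb1 (-0.22), Hspb6 (-0.00063), Hspb7 (-0.22) and Hspb8 (-0.10). With median centring it turned for Dnaja1 (0.030), Dnajb2 (0.043), Dnajc6 (0.026), Hspa8 (0.19), Stip1 (0.067) and Stub1 (0.033), with cyclic loess for Hsf1 (-0.0085), and with the mean over probe sets for Hspa12a (-0.041). Leaving out arrays or experiments, changes ranged from -0.047 to 0.28 for Cryab, -0.078 to 0.21 for Dnaja3, -0.094 to 0.19 for Dnajb1, -0.30 to 0.054 for Dnajb11, -0.19 to 0.077 for Dnajb2, -0.092 to 0.13 for Hsf1, -0.012 to 0.029 for Hspa12a, -0.051 to 0.12 for Hspa2, -0.33 to 0.033 for Hspa4l and -0.13 to 0.0036 for Stub1, with a change of sign in each. No other gene named by the rule changed sign in these fits.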
